A study of Mus musculus with 14 samples.

Results

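The 148 long non-coding RNAs (lncRNAs) described here were the ones that the mouse heart libraries held in quantity. They were selected on their measured level: a row was kept where its class was lincRNA, antisense, lncRNA, processed_transcript, sense_intronic, sense_overlapping or bidirectional_promoter_lncRNA, where it lay on an autosome, and where its mean over all 14 libraries was 5 CPM (counts per 1000000 counts of the library) or more. They made up 148 of 8949 autosomal lncRNA rows and of 54532 rows in all. RNA of heart tissue was sequenced from male wild-type C57BL/6J mice that were 8 weeks old at the start, with 1 mouse per library. Irradiated mice received 30 Gy of cobalt γ-rays on the front of the chest under pentobarbital, with the rest of the body behind lead, and the hearts were collected 1 day (IRR_1d, n = 3) or 6 weeks (IRR_6w, n = 4) later. Unirradiated mice were collected at the same times (Control_1d, n = 3, and Control_6w, n = 4), so the 6-week mice of both kinds were also older at collection than the 1-day mice. Whether the unirradiated mice were anaesthetised is not given in the sources used here, and a single mouse strain, sex, dose and beam stand behind every value.

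LncRNAs are long transcripts that are not known to be translated into a large protein, although a few encode short peptides. Some remain in the nucleus, where they build bodies around themselves or silence genes on the chromosome they are made from, as the imprinted lncRNAs do. Others act in the cytoplasm as decoys for RNA-binding proteins or microRNAs, and others matter mainly for the small nucleolar RNAs (snoRNAs) or microRNAs (miRNAs) cut out of them. Which part of the heart was taken for RNA is not given in the sources used here. In such tissue the reads of an lncRNA come from muscle, vessel, connective-tissue and immune cells together. Fewer cells of a type and less RNA per cell cannot be told apart in such bulk samples.

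The lncRNA with the highest level was 1700020I14Rik, which RefSeq calls Oip5os1 and which is widely known as Cyrano, on chr2:119594297-119607502 of the plus strand (GRCm38). It is known for a conserved site that binds the miRNA miR-7 over nearly its whole length and brings about its destruction. The miRNA and the site are shown because that pairing is what the transcript is best known for. Both lines come from RefSeq or the mouse genome of build GRCm38.p6 and are written 5′ to 3′, with the seed of the miRNA (bases 2 to 8) and its complement in the transcript in capitals. The site lies at chr2:119602136-119602161 on the plus strand.
miR-7a-5p: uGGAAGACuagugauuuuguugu
Oip5os1 site: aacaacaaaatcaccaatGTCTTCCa
Beyond the seed, 14 of the 15 other bases of the miRNA were complementary to the site once a bulge of 2 bases was allowed. The other place with the same seed match in the annotated transcripts of this gene had 4 of 15.

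The 148 lncRNAs were 62 lincRNAs, 38 processed transcripts, 37 antisense RNAs, 8 bidirectional promoter lncRNAs, 2 sense intronic RNAs and 1 sense overlapping RNA, on all 19 autosomes. Their median annotated length was 2969 bases, against 1033 bases for all autosomal lncRNA rows. The class names did not always hold: of the 120 members matched to RefSeq by identifier, 102 were lncRNAs there, 2 were pseudogenes and 16 were protein coding. Ndufb1-ps and Cct6a, both among the most abundant, and Ifi30, Zswim6, Lsmem2, Ptpmt1 and Tctn2 were among those 16. Exonic bases were shared with another gene in 80 members, and in 68 of them that gene lay on the other strand. As the use of strand in counting is not given in the sources used here, the reads of such a pair cannot be told apart. In 10 members, some of them among these 80, 100 or more bases stood elsewhere at 98% identity or more, and for 5 of the 10 (Gm47547, Gm10076, AC131339.2, Gm42047 and 2900097C17Rik) this covered over 50% of the longest transcript, so their counts are uncertain.

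All 148 lncRNAs passed the filter on low counts, and 46 of them had 5 CPM or more in every library. A mean of 5 CPM or more in each of the 4 groups was reached by 101, and in only 1 group by 9. Without its highest library, the mean of 22 members fell under 5 CPM. The members just inside the limit were Tctn2 and 9230112E08Rik at a mean of 5.05 CPM and AC163032.1 at 5.10 CPM. Just outside it were 0610009L18Rik at 4.89 CPM, 2610035D17Rik at 4.75 CPM and Mhrt, a lncRNA of the myosin heavy chain locus of heart muscle, at 4.74 CPM. No read was counted in any library for 3966 of the 8949 autosomal lncRNAs.

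Library totals ran from 13336746 to 16837265 counts. The 148 lncRNAs together took 0.282 to 0.468% of them, with a summed level of 3497 ± 1027 CPM in Control_1d (SD, n = 3), 3297 ± 140 in IRR_1d (n = 3), 3716 ± 577 in Control_6w (n = 4) and 3904 ± 533 in IRR_6w (n = 4). The groups overlapped. Mitochondrial counts took 22.3 to 30.3% of the totals in Control_6w and 10.4 to 22.2% in IRR_6w, without overlap. At 1 day they took 20.3 to 44.2% in Control_1d and 28.1 to 40.2% in IRR_1d. With these counts left out of the totals, the sum was 5232, 4359, 5773 and 4731 CPM in Control_6w. In IRR_6w it was then 4087, 4372, 5006 and 5047 CPM, so the highest value was in a control and the lowest in an irradiated library. In each group the 10 most abundant members held about the same part of the sum, from 48.1 to 52.0%.

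**Figure D1:**
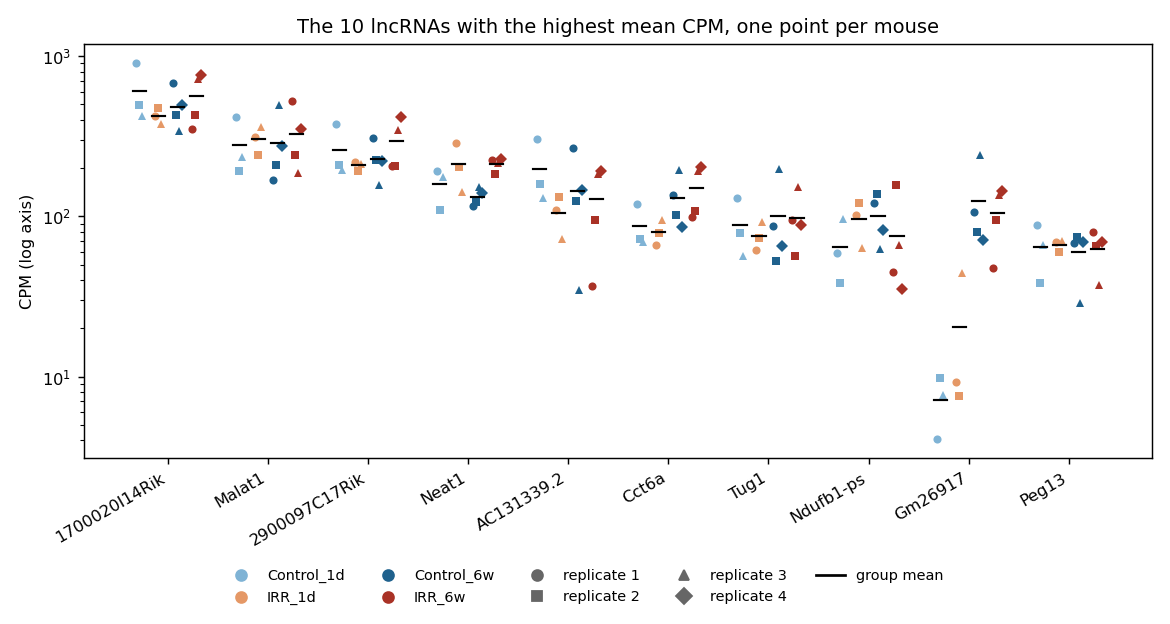
CPM (log axis) of the 10 lncRNAs with the highest mean level, with one point per mouse, colours for the 4 groups, symbols for the replicates and a bar at each group mean. The points of 1700020I14Rik lie between 341 and 908 CPM, and those of Gm26917 between 4.08 and 243 CPM.

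Cyrano (1700020I14Rik) averaged 521 CPM. Its level was 908, 496 and 421 CPM in Control_1d and 422, 475 and 375 CPM in IRR_1d. At 6 weeks it was 675, 426, 341 and 494 CPM in the controls and 351, 427, 722 and 761 CPM in IRR_6w. The irradiated and control ranges overlapped at both times. The fitted log2 fold change was -0.52 (SE 0.38) at 1 day and -0.05 (SE 0.32) at 6 weeks, with adjusted p = 1.0 and 0.977 in edgeR.

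Malat1, a nuclear RNA of the speckles where splicing factors gather, was next at a mean of 300 CPM (chr19:5795690-5802672, minus strand). It measured 414, 193 and 235 CPM in Control_1d and 311, 242 and 361 CPM in IRR_1d. In the 6-week groups it measured 168, 210, 495 and 275 CPM in Control_6w and 522, 241, 186 and 349 CPM in IRR_6w. The 6-week groups spread over nearly the whole range, the 1-day groups over less of it, and irradiated and control libraries overlapped at both times.

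Its neighbour Neat1 forms the backbone of the nuclear bodies called paraspeckles (chr19:5824708-5845478, minus strand; mean 178 CPM). Neat1 was at 192, 109 and 175 CPM in Control_1d and at 286, 204 and 142 CPM in IRR_1d, which overlapped. At 6 weeks the controls held 116, 123, 152 and 139 CPM and IRR_6w 224, 185, 215 and 227 CPM. All 4 irradiated libraries of that time lay above all 4 controls, and the fitted change, a log2 fold change of 0.44 (SE 0.24), did not pass the test (edgeR, adjusted p = 0.635).

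The lncRNA 2900097C17Rik is called Norad in RefSeq and is known to sequester Pumilio proteins, which bind the letters TGTANATA, and so to protect chromosome segregation after DNA damage. A search of its longest transcript in the sense direction found 11 copies, or 2.24 per kb, the highest density among the members, while 105 members had none. Its level was 375, 208 and 196 CPM in Control_1d, and 217, 193 and 213 CPM in IRR_1d. At 6 weeks it was 307, 226, 158 and 220 CPM in Control_6w, and 206, 205, 345 and 417 CPM in IRR_6w. The groups overlapped at both times, and a near-identical copy, the row Gm7292, matched 51.6% of its longest transcript.

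Further down by CPM came AC131339.2 at 142, Cct6a at 116, Tug1 at 92.0, Ndufb1-ps at 84.9, Gm26917 at 71.8 and Peg13 at 63.3. Tug1 is a spliced nuclear lncRNA and Peg13 an imprinted one. Per length the order differed. On the FPKM scale, the CPM per kilobase of the deposited gene length, Ndufb1-ps was highest at a mean of 73.6, followed by AC131339.2 at 73.5, Cyrano at 62.7, Gm10076 at 51.6, Norad at 50.7 and Malat1 at 43.0. Tug1 stood at 9.45 and Neat1 at 8.56 FPKM. The lowest member per length was Kcnq1ot1, a very long imprinted RNA, at 0.0726 FPKM, and the median was 3.27.

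Several libraries stood apart, and their markers were checked before the comparisons. In Control_6w replicate 3 the 10 thymus markers searched, all in the table, summed to 5540 CPM. They reached 65.6 CPM in Control_6w replicate 4 and 120 CPM in IRR_6w replicate 1, and at most 32.1 CPM in the rest, where Rag2 and Ptcra had no count in any 1-day library. In that library the 5 heart muscle markers were lowest, at 4177 CPM, against 8478 to 27375 in the others. In IRR_6w replicate 1 the 8 lung epithelium markers summed to 500 CPM, against at most 34.1 elsewhere, and the 5 atrial markers to 3340 CPM, while IRR_1d replicate 3 held 2028 CPM of the atrial set and at most 389 stood in the others. Ucp1, the uncoupling protein of brown fat, had counts in 3 libraries only. It stood at 231 CPM in IRR_1d replicate 3, at 559 CPM in Control_6w replicate 3 and at 808 CPM in IRR_6w replicate 1, and Cidea and Elovl3 were highest in the same 3. The 5 brown fat markers, which include Fabp3 of heart muscle, summed to 312 to 2421 CPM over all libraries. The 5 red cell markers summed to 74006 CPM in IRR_6w replicate 1 and to 1928 to 29342 CPM elsewhere. The 9 germ cell markers reached 58.6 to 85.5 CPM in Control_6w replicates 1 to 3 and at most 0.338 elsewhere. In 3 libraries many genes of low level were missing: among genes with a mean of 2 to 5 CPM, 37.6% had no count in Control_1d replicate 1, 29% in IRR_6w replicate 3 and 14% in IRR_6w replicate 4, against 0.106 to 7.66% in the rest.

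**Figure D2:**
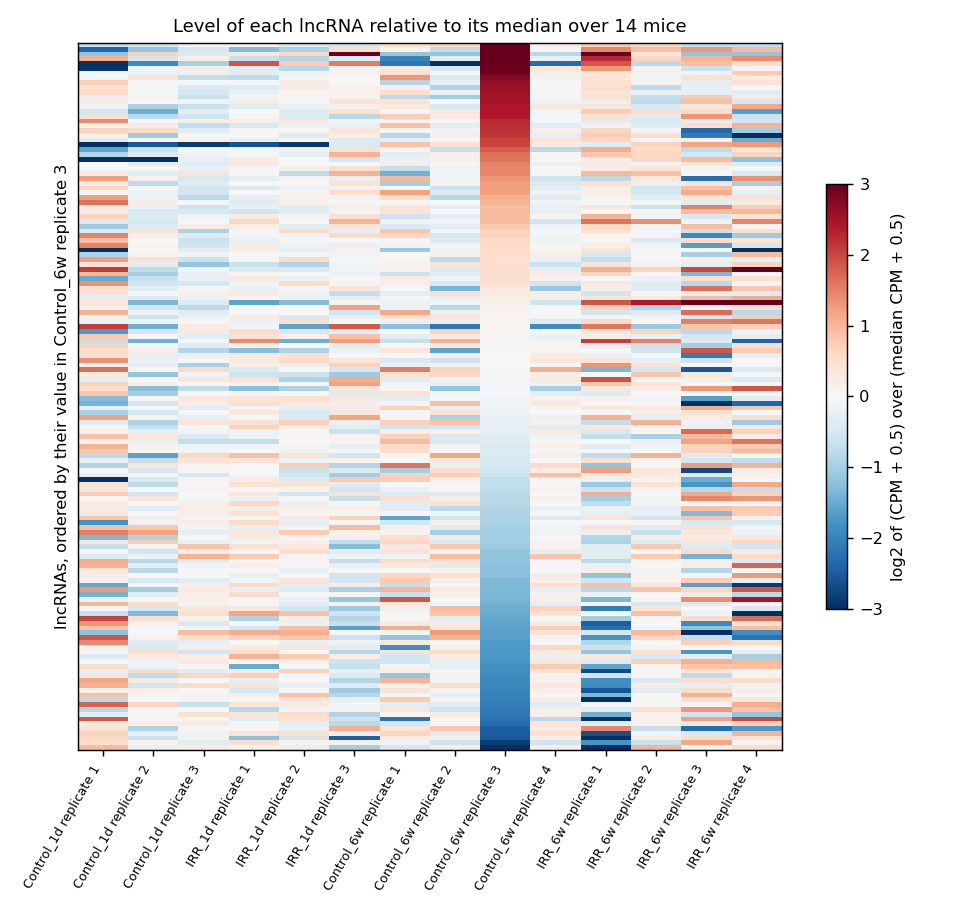
Log2 of each level (CPM + 0.5) over the lncRNA's median level (CPM + 0.5), with the 148 lncRNAs in rows, the 14 libraries in columns and colours limited to -3 and 3. Rows are ordered by their value in Control_6w replicate 3, which holds the highest level of 31 lncRNAs and the lowest of 32.

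Some of these libraries also stood apart in the levels of the members. Control_6w replicate 3 held the highest level of 31 lncRNAs and the lowest of 32, and Control_1d replicate 1 held the highest of 30. A level over 3 times that of every other library was found for 12 members, 11 of them in Control_6w replicate 3. Dgkeos, an antisense RNA that overlaps the lipid kinase gene Dgke at its start, was at 78.3 CPM there and at no more than 0.879 CPM elsewhere. Dgke itself was at 218 CPM in that library and at 16 to 54.7 in the others. AI504432, which starts downstream of the potassium channel gene Kcna3 of T cells, was at 219 CPM there against at most 6.49, and Kcna3 was at 10.1 against at most 4.35. Dleu2, 1810026B05Rik, AI662270, Gm12940, 1300002E11Rik, Snhg1, Snhg5, Gm49172 and AC163032.1 were the others. The part of thymus tissue in these values was not tested. The remaining member was E030013I19Rik in IRR_1d replicate 3, at 66.9 CPM against at most 17.1. The integrin gene Itga8, which it overlaps on the other strand, was at 299 CPM in that library and next highest, at 99.0 CPM, in Control_6w replicate 3.

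The first comparison asked what 30 Gy had done to the lncRNAs after 1 day. No lncRNA passed the test, for which a change had to exceed 2-fold with an adjusted p under 0.05 over all 16034 genes tested (edgeR quasi-likelihood, Benjamini-Hochberg). Over all genes 0.0249% passed. At an unadjusted p under 0.05 with the same fold, 1 lncRNA was higher (0.676% of the members, 1.56% of all genes) and 0 were lower (0.674% of all genes). With each library left out in turn these counts ran from 0 to 3 and from 0 to 2, with 3 and 2 without Control_1d replicate 3 and 0 of either without Control_1d replicate 1 or IRR_1d replicate 3. DESeq2 called 0 among 33 genes in a model of all 14 libraries and 1, Gm42047, among 59 genes in a model of the 2 groups alone. Limma-voom called 0 members and 0 genes, and edgeR over all genes called 4. The median log2 fold change of the members was -0.07, that of all genes 0.06, and 137 members lay within 2-fold either way.

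**Figure D3:**
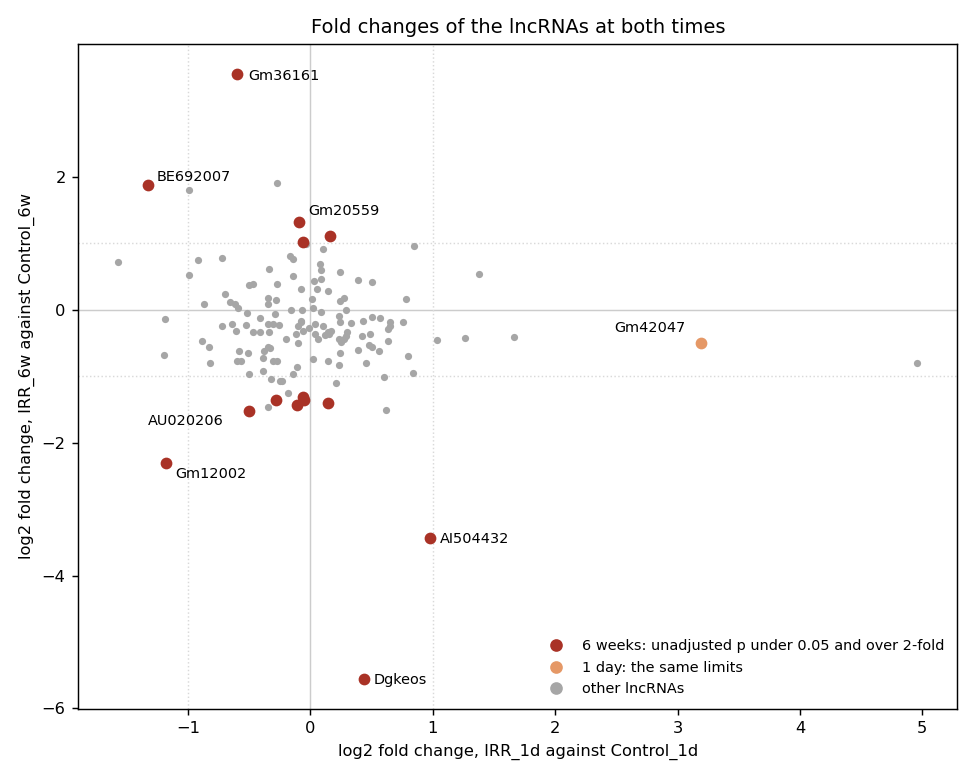
Log2 fold changes of the 148 lncRNAs, IRR_1d against Control_1d on the horizontal axis and IRR_6w against Control_6w on the vertical axis (edgeR), with one point per lncRNA and dotted lines at 2-fold. Red and orange points had an unadjusted p under 0.05 and over 2-fold at 6 weeks or 1 day, and Gm36161, at 3.54 on the vertical axis, was the only one to pass the adjusted test.

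Gm42047 (chr8:121833247-121841178, plus strand) lies between the amino acid transporter gene Slc7a5 and Klhdc4. It was at 1.52, 4.90 and 9.54 CPM in Control_1d and at 73.4, 33.2 and 57.4 CPM in IRR_1d. The groups did not overlap, and the log2 fold change was 3.19 (SE 1.39, adjusted p = 1.0 in edgeR; 4.22e-05 to 1.0 over the alternatives). The 6-week libraries, which share the model's error, spread widely. IRR_6w held 72.1, 11.1, 36.9 and 28.1 CPM, and the controls 3.98, 1.84 and 3.57 CPM but 193 CPM in replicate 3, the library with thymus markers. Without that library the log2 fold change at 1 day stayed at 3.19 and its SE fell to 0.70 (edgeR, adjusted p = 0.277). Copies at 5 other annotated genes covered 95.9% of its transcript, so the reads may belong to any of them.

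At 1 day 5 lncRNAs had groups that did not overlap, or 3.38% of the members against 9.25% of all genes. Gm42047, Ifi30, 2810013P06Rik and C030037D09Rik were higher, and C130080G10Rik was lower. Ifi30, a lysosomal thiol reductase of antigen-presenting cells that RefSeq lists as protein coding, went from 5.12, 4.60 and 6.58 CPM to 10.7, 7.02 and 14.2 CPM (log2 fold change 0.85, SE 0.49). C130080G10Rik went from 44.5, 43.9 and 45.7 CPM to 36.7, 31.1 and 21.1 CPM (log2 fold change -0.66, SE 0.54). Neither passed the test, with an adjusted p of 1.0 for both in edgeR.

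Of the other 7 members among the 8 smallest p-values, none passed the test, and several values moved with 1 library. AC133498.1 was at 25.4, 8.55 and 6.38 CPM in Control_1d and at 2.83, 6.81 and 2.96 CPM in IRR_1d, a log2 fold change of -1.57 that was -1.01 without Control_1d replicate 1. E030013I19Rik had a log2 fold change of 4.96 (SE 2.68) and 0.80 without IRR_1d replicate 3, where it stood at 66.9 CPM, without which its mean was below 5 CPM, and where the 4 fibroblast markers summed to 4078 CPM against 1394 to 2557 in Control_1d. Gm26917 had a log2 fold change of 1.26 and 0.15 without the same library. Gm46430 was at -0.83 and at -0.35 without Control_1d replicate 1, and 3110039I08Rik at 0.78 and at 0.38 without IRR_1d replicate 3. Gm12002 was at -1.18, and Gm47547 at -0.72.

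The second comparison asked the same at 6 weeks. A single lncRNA, Gm36161, which was chosen through its level in IRR_6w, passed the test (0.676% of the members, 0.256% of all genes). At an unadjusted p under 0.05 and over 2-fold, 5 were higher (3.38% of the members, 3.69% of all genes) and 9 lower (6.08%, 1.75% of all genes). The median log2 fold change was -0.28 for the members and -0.09 for all genes, with 47 members above 0 and 101 below. With RLE factors in place of TMM factors the split was nearly the same, with 48 members above 0 and 100 below. Library totals moved the median of all genes to 0.14 and that of the members to -0.04, both upward, with 70 members above 0 and 78 below, and the unadjusted counts became 10 higher and 6 lower. DESeq2 called 3 members in a model of all libraries (Gm36161, Gm12002 and AU020206) among 344 genes, and 3 in a model of the 2 groups alone (Gm36161, Gm12002 and BE692007) among 358 genes. Limma-voom called 0 members and 18 genes, and edgeR over all genes called 41. Without Control_6w replicate 3 the unadjusted counts in edgeR were 9 higher and 4 lower, without IRR_6w replicate 2 they were 8 and 9, and without IRR_6w replicate 4 they were 1 and 5. Without 3 of the libraries with markers of other tissues (Control_6w replicate 3, IRR_6w replicate 1 and IRR_1d replicate 3) they were 10 and 3. This setting kept Control_6w replicates 1 and 2, which held germ cell markers. In it 2 lncRNAs passed among 180 genes, Gm36161 (adjusted p = 0.0105) and Gm10076 at a log2 fold change of -2.28 (adjusted p = 0.0339, edgeR).

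Gm36161 is a lincRNA of 4 exons on chr13:120010390-120018931 (plus strand), and its function is not described here. It was at 1.69, 1.77, 2.24 and 1.11 CPM in Control_6w and at 8.45, 12.3, 41.4 and 32.0 CPM in IRR_6w. All irradiated libraries lay above all controls, and the log2 fold change was 3.54 (SE 0.68, adjusted p = 0.0483 in edgeR). At 1 day it was at 2.49, 0.439 and 1.34 CPM in Control_1d and at 0.308, 0.486 and 2.07 CPM in IRR_1d, so that the 4 libraries of IRR_6w were the highest of all 14. Its mean of 5 CPM or more, by which it was chosen, came from IRR_6w alone, so its higher level there, its call and the share of members called follow from that choice and are given as a description. The same holds for its values between irradiated hearts and in the interaction.

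The call of Gm36161 stood close to the threshold, while its direction did not change. With each library left out in turn, the log2 fold change ranged from 3.11 to 3.82 and the adjusted p from 0.0199 to 0.193. The call held without Control_1d replicate 1, IRR_1d replicate 3 or IRR_6w replicate 1. It was lost without any one of the other 11, namely Control_1d replicates 2 and 3, IRR_1d replicates 1 and 2, Control_6w replicates 1, 2, 3 and 4 and IRR_6w replicates 2, 3 and 4. Without the 3 libraries in which low genes were missing, 2 of them the highest for Gm36161, the log2 fold change was 2.46 (adjusted p = 0.38). Over all alternatives the adjusted p ran from 8.64e-08 to 0.38.

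The promoter of Gm36161 is shown as that of the only lncRNA that passed. It covers 250 bases before and 50 after the RefSeq start, chr13:120010092-120010391 on the plus strand of GRCm38.p6, and the capitals mark the letters GAAA, any 2 bases and GAAA, a core of the element bound by interferon regulatory factors.
Gm36161: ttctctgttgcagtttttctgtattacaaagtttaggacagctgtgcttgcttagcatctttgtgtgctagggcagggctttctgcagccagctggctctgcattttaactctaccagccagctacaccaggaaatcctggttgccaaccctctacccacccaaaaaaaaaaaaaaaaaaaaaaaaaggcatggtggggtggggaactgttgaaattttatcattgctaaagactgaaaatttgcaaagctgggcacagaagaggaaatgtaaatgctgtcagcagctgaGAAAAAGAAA
These letters, searched on both strands, were in 4 of the 99 member promoters at hand (4.04%: 9330158H04Rik, Gm36161, Gm5860 and Rab10os) and in 1126 of 32817 mouse promoters of the same length (3.43%). The match in Gm36161 is a description of the sequence only.

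The protein-coding gene nearest to Gm36161 is Gm36079, 7508 bases away on the other strand, whose level is not given here. A more distant one, Gm21188, lies downstream of Gm36161, also on the other strand (chr13:120034605-120052194). It was at 2.58, 0.71, 2.04 and 0.924 CPM in Control_6w and at 5.68, 9.01, 13.3 and 15.1 CPM in IRR_6w. Its groups did not overlap either, with a log2 fold change of 2.56 (SE 0.67, adjusted p = 0.141 in edgeR). As the level of the nearest gene is not given, these values of a farther gene do not describe the locus.

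**Figure D4:**
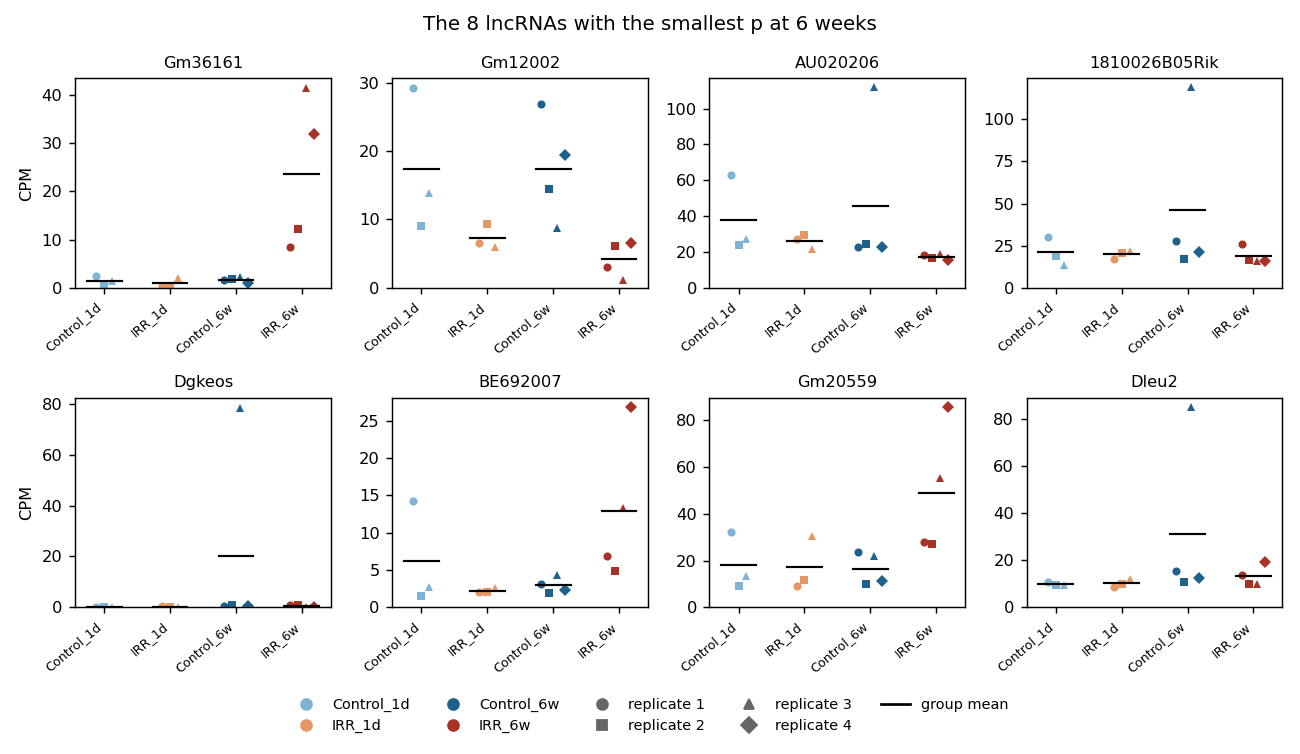
CPM (linear axes from 0) of the 8 lncRNAs with the smallest p-values at 6 weeks, with one point per mouse in the 4 groups and a bar at each group mean. Gm36161 reached 8.45 to 41.4 CPM in IRR_6w, above its controls, while AU020206, 1810026B05Rik, Dgkeos and Dleu2 had a single high point, Control_6w replicate 3.

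Gm12002 had the second smallest p-value (chr11:12314514-12351028, plus strand). It runs antisense within introns of Cobl, an actin nucleator gene, and shares no exonic base with it. It was at 26.9, 14.5, 8.75 and 19.4 CPM in Control_6w and at 3.11, 6.07, 1.12 and 6.53 CPM in IRR_6w. The groups did not overlap, at a log2 fold change of -2.31 (SE 0.55, adjusted p = 0.111 in edgeR, 0.002 to 0.389 over the alternatives). At 1 day it was at 29.2, 9.06 and 13.8 CPM in Control_1d and at 6.58, 9.31 and 5.99 CPM in IRR_1d, where the groups overlapped. Cobl had a log2 fold change of 0.42 (SE 0.39) at 6 weeks.

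BE692007 lies across the Ms4a6c gene of the macrophage membrane proteins, on the other strand (chr19:11470166-11484578, minus strand), and 20.8% of its exonic bases overlap that gene. It was at 3.17, 1.99, 4.34 and 2.34 CPM in Control_6w and at 6.83, 4.92, 13.3 and 26.8 CPM in IRR_6w. The groups did not overlap, and the log2 fold change of 1.88 (SE 0.63) did not pass the test in edgeR (adjusted p = 0.326), while DESeq2 on the 2 groups called it (adjusted p = 0.0382). Its mean was below 5 CPM without IRR_6w replicate 4, so its choice as a member rested on that library. Its higher level in IRR_6w, its lack of overlap and its DESeq2 call follow from that choice and are given as a description. The same holds for its place among the 5 higher lncRNAs, and for its values between irradiated hearts and in the interaction. Ms4a6c was at 2.76 to 7.21 CPM in Control_6w and 13.5 to 31.7 CPM in IRR_6w, and did not pass the test either (log2 fold change 1.83, SE 0.45, adjusted p = 0.118 in edgeR). The 4 macrophage markers searched, all in the table and none at 0, summed to 72.8 to 180 CPM in Control_6w and to 296 to 485 CPM in IRR_6w, against 81.9 to 162 in Control_1d and 123 to 222 in IRR_1d. The 4 fibroblast markers did not overlap either, at 855 to 1741 CPM in Control_6w and 1990 to 2948 CPM in IRR_6w. The part of these cells in the level of BE692007 or of the other lncRNAs at 6 weeks was not tested.

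Gm20559 is a processed transcript near Samd9l, an interferon-inducible antiviral gene that lies 26129 bases away on the same strand (chr6:3333194-3346128, minus strand). It was at 23.6, 9.79, 21.8 and 11.1 CPM in Control_6w and at 27.9, 27.2, 55.3 and 85.5 CPM in IRR_6w. Here too the irradiated libraries lay above the controls (log2 fold change 1.32, SE 0.45, adjusted p = 0.33 in edgeR). Samd9l was at 38.2 to 96.5 CPM in Control_6w and at 86.1 to 218 CPM in IRR_6w, with overlap. Without the 3 libraries in which low genes were missing, the log2 fold change was 0.58 for Gm20559 and 0.83 for BE692007. In that setting the adjusted p was 0.785 for Gm20559 and 0.759 for BE692007 (edgeR).

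Control_6w replicate 3 bore on many of the lncRNAs that were lower at 6 weeks. AU020206 was at 22.7, 24.6, 112 and 22.9 CPM in Control_6w and at 18.3, 16.8, 19 and 15.6 CPM in IRR_6w. Its groups did not overlap, at a log2 fold change of -1.52, and at -0.74 (SE 0.26, adjusted p = 0.288 in edgeR) without replicate 3 of the controls. 1810026B05Rik, called Chaserr in RefSeq and known to restrain its neighbour Chd2, a chromatin remodeller gene, was at 28.0, 17.3, 119 and 21.2 CPM and at 26, 16.8, 16 and 15.7 CPM. Its log2 fold change of -1.44 became -0.56 without that library, and Chd2 stood at 0.06. Of the exonic bases of 1810026B05Rik, 30.5% are shared with Chd2 on the same strand, so reads there cannot be told apart even by strand. For Dleu2 a log2 fold change of -1.36 became -0.30. Dgkeos, at -5.55 (SE 1.79), was at -0.85 (SE 1.51) without that library. AI504432, Gm17066, AC163032.1 and Gm12940, the other lower ones at an unadjusted p, had log2 fold changes of -3.43, -1.36, -1.40 and -1.32, and each had its highest level of all 14 libraries in that control. Dgkeos, AI504432 and AC163032.1 reached the mean of 5 CPM, by which members were chosen, only through that library, so their values and their place among the 9 lower lncRNAs follow from the choice and describe 1 library. The sum of the thymus markers there was 5540 CPM, and its part in these values was not tested.

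In all, 10 lncRNAs had groups that did not overlap at 6 weeks, 6.76% of the members against 7.12% of all genes. Both shares were read on CPM of the library totals. Mitochondrial counts took a smaller part of the total in every IRR_6w library than in every Control_6w library. The part of this difference in the lack of overlap was not tested. Gm36161, BE692007, Gm20559, Neat1, Zswim6, Gm26809 and 4933431K23Rik were higher, and Gm12002, AU020206 and 9430091E24Rik were lower. Zswim6, a zinc finger gene that RefSeq lists as protein coding, went from 12.2, 10.7, 14.7 and 14.4 CPM to 16.4, 16, 24.8 and 27.8 CPM, at a log2 fold change of 0.46 (SE 0.27). 9430091E24Rik went from 9.28, 10.1, 9.01 and 10.6 CPM to 7.71, 8.63, 1.65 and 7.60 CPM, at -0.84 (SE 0.45). Gm37305 and Tctn2, the remaining members higher at an unadjusted p, had log2 fold changes of 1.10 and 1.01. Tctn2 was only just inside the limit for members, at a mean of 5.05 CPM, so its choice leaned on its higher level in IRR_6w. Its place among the higher lncRNAs is therefore given as a description.

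The unirradiated hearts of the 2 collection times were compared next, a contrast that holds age and any difference in handling together. No lncRNA passed the test in edgeR, and 0% of all genes did. At an unadjusted p, 6 were higher at 6 weeks (4.05% of the members, 2.72% of all genes) and 6 lower (4.05%, 1.03% of all genes), and 11 had groups that did not overlap (7.43%, 6.8% of all genes). The higher ones included Dgkeos, AI504432 and Gm49172, whose place there follows from the choice of members by their mean, which Control_6w replicate 3 carried. DESeq2 called 1 among 28 genes in a model of all libraries and 1 among 40 genes in a model of the 2 groups alone, and limma-voom called 0 members and 0 genes. Without Control_6w replicate 3 the unadjusted counts were 1 higher and 4 lower, and over the other libraries left out in turn they ran from 4 to 10 higher and from 2 to 9 lower. The median was -0.08 for the members and 0.12 for all genes.

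The lncRNA that DESeq2 called was Gm26917 (chr17:39843013-39846341, plus strand), which lies beside the ribosomal RNA row CT010467.1 (chr17:39846353-39848827, minus strand). It was at 4.08, 9.79 and 7.66 CPM in Control_1d and at 107, 80.3, 243 and 70.8 CPM in Control_6w. IRR_1d held 9.29, 7.57 and 44.6 CPM and IRR_6w 47.8, 94.4, 135 and 144 CPM, so every 6-week library was above every 1-day library. The log2 fold change between controls was 3.81 (SE 0.68, adjusted p = 0.244 in edgeR and 5.37e-08 to 1.0 over the alternatives). CT010467.1 went from 12.3, 111 and 120 CPM to 141, 98.1, 156 and 73.8 CPM, with overlap and a log2 fold change of 0.22 (SE 0.58). Gm42418 and AY036118, annotated on the same ribosomal stretch, had no count in any library.

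Snhg14, the imprinted host of brain snoRNAs, was at 25.1, 20.3 and 6.85 CPM in Control_1d and at 9.20, 4.04, 3.95 and 7.82 CPM in Control_6w (log2 fold change -1.60, SE 0.49, adjusted p = 0.902 in edgeR). Mir99ahg was at 28.6, 26.6 and 13.6 CPM and at 16.5, 11.4, 7.17 and 13.6 CPM (-1.05, SE 0.40). C130083M11Rik was at 11.3, 5.19 and 5.64 CPM and at 1.69, 3.97, 2.96 and 4.43 CPM (-1.24). Only the last had groups that did not overlap. Gm47547 had a log2 fold change of -0.95. Without Control_6w replicate 3, AI504432 went from 5.92 to 1.19, Dgkeos from 6.95 to 2.24 and Gm21781 from 1.57 to 0.68.

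Between irradiated hearts of 6 weeks and 1 day no lncRNA passed the test in edgeR, against 0.0374% of all genes. DESeq2 called 2 with all libraries (Gm36161 and Gm26917) among 148 genes, and 4 with the 2 groups alone (with BE692007 and AI662270) among 368 genes. The places of Gm36161 and BE692007 in these calls and in the counts of higher members below follow from the choice of members, which IRR_6w carried. Limma-voom called 0 members and 10 genes, and edgeR over all genes called 6. At an unadjusted p, 4 were higher at 6 weeks (2.7% of the members, 3.06% of all genes) and 3 lower (2.03%, 0.786% of all genes). With each library left out in turn these counts ran from 3 to 6 and from 1 to 7. Groups did not overlap for 12 (8.11%, 11.8% of all genes). Mitochondrial counts took a smaller part of the total in every IRR_6w library than in every IRR_1d library too, and their part in this was not tested. With library totals as the scale the unadjusted counts were 6 higher and 0 lower, and the median of all genes moved from -0.02 to 0.30 and that of the members from -0.24 to 0.08.

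Gm36161 again had the smallest p-value, at a log2 fold change of 4.34 (SE 0.80, adjusted p = 0.0754 in edgeR, 2.83e-07 to 0.691 over the alternatives), and of 5.41 without IRR_1d replicate 3. It passed without Control_6w replicate 3 (adjusted p = 0.0431) and without IRR_6w replicate 1 (0.0397). Gm26917 had a log2 fold change of 2.12 (3.23 without IRR_1d replicate 3), BE692007 of 2.16 and Gm20559 of 1.2. Lower at 6 weeks were Gm10435 at -1.36, 9430091E24Rik at -1.10 and Gm13111 at -1.06. Airn, the imprinted RNA that silences Igf2r, was at 12.7, 15.8 and 13.4 CPM in IRR_1d and at 13.7, 8.63, 6.52 and 10.3 CPM in IRR_6w, a log2 fold change of -0.86 (SE 0.39, adjusted p = 0.843 in edgeR).

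Whether the effect of irradiation differed between the times was tested as an interaction. No lncRNA passed in edgeR, and 0% of all genes did. DESeq2 called 1, Gm36161, among 42 genes, and limma-voom called 0 members and 0 genes. At an unadjusted p, 3 had a higher effect at 6 weeks (2.03% of the members, 1.98% of all genes) and 1 a lower one (0.676%, 0.879% of all genes). With each library left out in turn these counts ran from 2 to 5 and from 0 to 5, with 3 and 5 without Control_1d replicate 3 or Control_6w replicate 2. The 4 were Gm36161 at a log2 difference of 4.14 (SE 1.00, adjusted p = 0.629 in edgeR), BE692007 at 3.21, AC133498.1 at 2.28 and Dgkeos at -5.98. The places of Gm36161 and BE692007 here follow from their choice as members through IRR_6w. That of Dgkeos follows from its choice through Control_6w replicate 3. For Gm36161 it was 5.21 without IRR_1d replicate 3. For AC133498.1 it was 1.72 without Control_1d replicate 1 and 1.66 without IRR_6w replicate 4, at an unadjusted p of 0.113 and 0.102 in edgeR. For Dgkeos it was -1.26 without Control_6w replicate 3. For BE692007 it was 1.99 without Control_1d replicate 1, in which it stood at 14.3 CPM while the other Control_1d libraries held 1.53 and 2.69 CPM.

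The members were also described by role, from lists that were drawn up with earlier results of these data known. In no list did a lncRNA pass the test in any comparison (edgeR), and the all-gene percentages given above for each comparison are the background. Their unadjusted calls were few: Snhg14 and Mir99ahg lower between controls, 1810026B05Rik lower at 6 weeks, and Gm26917 higher between controls and between irradiated hearts.

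SnoRNA hosts carry snoRNAs in their introns and are mostly degraded after splicing. Of 23 listed, 8 were members, and their median log2 fold change was -0.16 at 1 day and -0.52 at 6 weeks (range -1.25 to 0.51), against 0.06 and -0.09 for all genes. Gas5, known to accumulate when growth stops, was at 18, 7.67 and 15.9 CPM in Control_1d and at 17.3, 12.5 and 19.2 CPM in IRR_1d. At 6 weeks it was at 8.98, 18.9, 74.6 and 13.4 CPM in Control_6w and at 28.2, 24.0, 3.52 and 1.31 CPM in IRR_6w. Its highest value was in the library with thymus markers. Among the libraries where many low genes were missing, it was at 18 CPM in Control_1d replicate 1 and lowest in IRR_6w replicates 3 and 4. The part of thymus tissue or missing genes in these values was not tested. Zfas1 had no count in Control_1d replicate 1 and stood at 0.292 and 4.57 CPM in the others of that group, against 6.89, 5.56 and 3.93 CPM in IRR_1d. In the 6-week groups it was at 4.93, 6.46, 18.5 and 5.91 CPM in Control_6w and at 6.63, 9.14, 11.6 and 2.14 CPM in IRR_6w. Its log2 fold change was 1.66 (SE 1.14) at 1 day and -0.42 (SE 0.95) at 6 weeks. Snhg1 and Snhg5 were highest in Control_6w replicate 3 too, at 36.4 and 28.6 CPM, against at most 8.99 and 8.72 CPM elsewhere.

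Of 8 lncRNAs linked to the p53 response to DNA damage, Gas5, Meg3, Neat1 and Tug1 were members. Their median log2 fold change was 0.22 at 1 day (range -0.26 to 0.39) and 0.10 at 6 weeks (range -1.11 to 0.56). Tug1 was at 130, 79.1 and 56.4 CPM in Control_1d and at 61.5, 73.2 and 92.4 CPM in IRR_1d, and at 6 weeks at 86.6, 52.9, 198 and 65.2 CPM in Control_6w and at 94.5, 56.8, 152 and 88.6 CPM in IRR_6w. These ranges overlapped at both times.

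Imprinted lncRNAs are made from 1 parental copy, and 7 of 14 listed were members: Airn, H19, Kcnq1ot1, Meg3, Peg13, Rian and Snhg14. Their median was -0.08 at 1 day and 0.02 at 6 weeks. H19, abundant in the foetal heart and low in the adult, was at 18.5, 10.9 and 29.7 CPM in Control_1d and at 82.5, 10.8 and 74.0 CPM in IRR_1d. At 6 weeks it was at 18.4, 64.0, 31.3 and 32.2 CPM in Control_6w and at 129, 88.5, 23.2 and 5.40 CPM in IRR_6w. Its log2 fold change was 1.38 (SE 0.90) at 1 day and 0.53 (SE 0.77) at 6 weeks, with overlap in both. Meg3 was highest, at 23.2 CPM, in IRR_6w replicate 1, where the atrial and lung markers were, and at 2.78 to 13.2 CPM elsewhere. Kcnq1ot1 was at 25.3 CPM in Control_6w replicate 3 and at 0.60 CPM in IRR_6w replicate 3.

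The list of nuclear lncRNAs gave 7 members, which include Norad, known mainly from the cytoplasm, and their median was -0.11 at 1 day and -0.03 at 6 weeks. The heart list gave 4 members of 26 (Bvht, H19, Meg3 and Mir22hg), with medians of 0.52 and 0.54. Bvht, known from heart cell commitment, had no count in Control_1d replicate 1 and 1.95 to 11.4 CPM in the others. The immune list gave AW112010 and Neat1. AW112010, an interferon-inducible transcript that encodes a peptide, was at 25.5, 8.77 and 18.9 CPM in Control_1d and at 13.3, 13.2 and 9.64 CPM in IRR_1d. At 6 weeks it was at 28.3, 32.1, 20.3 and 22.9 CPM in Control_6w and at 21, 37.3, 25.7 and 19.9 CPM in IRR_6w. The groups overlapped at both times, and its log2 fold changes were -0.53 and -0.23.

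MicroRNA hosts were the last group. A hairpin lay inside 8 members, and 6 of 25 listed hosts were members: 3110039I08Rik, H19, Meg3, Mir22hg, Mir99ahg and Rian. The median log2 fold change of these 6 was 0.10 at 1 day and 0.52 at 6 weeks, against 0.06 and -0.09 for all genes. Dleu2 and 2900076A07Rik also hold a hairpin but were not on the list, so this median leaves them out. Dleu2 had a log2 fold change of -1.36 at 6 weeks, and of -0.30 without Control_6w replicate 3. Some mature miRNAs of 4 hosts are shown for the seeds that part of them share. The sequences are from RefSeq (GRCm38.p6), with the seed, bases 2 to 8, in capitals. Mir99ahg and 3110039I08Rik, called Mir100hg in RefSeq, carry clusters of the same kind on different chromosomes. In Mir99ahg lie miR-99a-5p at chr16:77598940-77598961, let-7c-5p at chr16:77599672-77599693 and miR-125b-5p at chr16:77646279-77646300, and in 3110039I08Rik lie miR-100-5p at chr9:41531437-41531458 and miR-125b-5p at chr9:41581940-41581961, all on the plus strand. The let-7a-2 hairpin also lies in 3110039I08Rik, with let-7a-2-3p at chr9:41536777-41536797 on the plus strand, and is not shown. Dleu2 holds miR-15a-5p at chr14:61632075-61632096 and miR-16-5p at chr14:61631936-61631957 on the minus strand, and Mir22hg holds miR-22-3p at chr11:75463772-75463793 on the plus strand.
miR-99a-5p: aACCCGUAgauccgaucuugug
miR-100-5p: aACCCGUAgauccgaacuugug
let-7c-5p: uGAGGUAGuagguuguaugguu
miR-125b-5p: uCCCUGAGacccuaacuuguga
miR-15a-5p: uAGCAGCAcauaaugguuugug
miR-16-5p: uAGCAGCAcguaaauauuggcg
miR-22-3p: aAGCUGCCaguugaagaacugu
The seed ACCCGUA was shared by miR-99a-5p of Mir99ahg and miR-100-5p of 3110039I08Rik, hosts that also both hold miR-125b-5p and a let-7 hairpin. AGCAGCA was shared by miR-15a-5p and miR-16-5p, both of Dleu2, and the seed of miR-22-3p was found in Mir22hg only among these hosts. Levels below are those of the long host RNA, since mature miRNAs are not counted in such libraries.

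**Figure D5:**
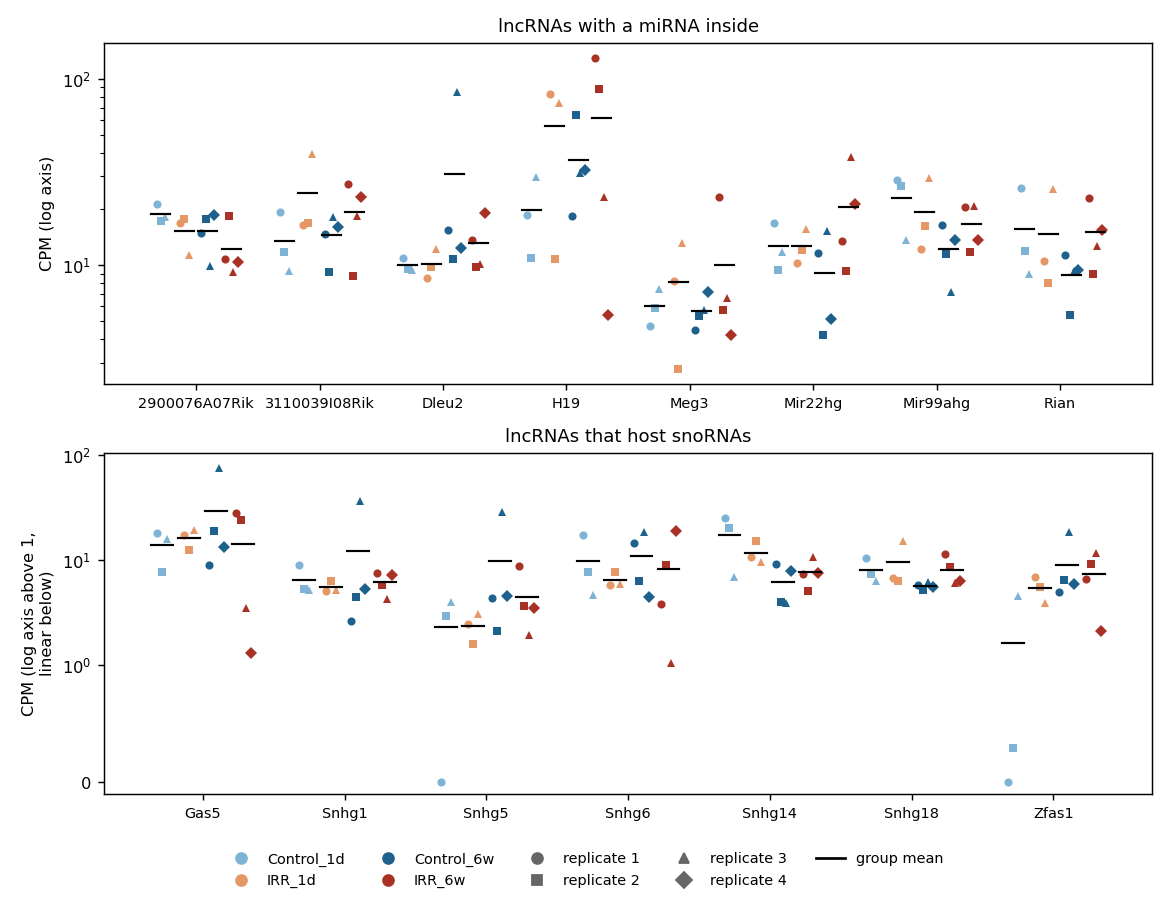
CPM of the 8 lncRNAs with a miRNA hairpin inside (upper panel, log axis) and of 7 snoRNA hosts (lower panel, log axis above 1 and linear below), with one point per mouse and a bar at each group mean. Dleu2 stands at 8.49 to 19.1 CPM in all libraries but Control_6w replicate 3, where it reaches 85 CPM.

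Mir99ahg was at 12.2, 16.3 and 29.5 CPM in IRR_1d and at 20.4, 11.8, 20.8 and 13.7 CPM in IRR_6w, which overlapped the controls given above (log2 fold changes -0.35, SE 0.43, and 0.18, SE 0.37). The Mir100hg row 3110039I08Rik was at 19.2, 11.7 and 9.34 CPM in Control_1d and at 16.5, 16.9 and 39.4 CPM in IRR_1d. In the 6-week groups it was at 14.7, 9.22, 18.1 and 16.1 CPM in Control_6w and at 27.1, 8.76, 18.3 and 23.3 CPM in IRR_6w. Both clusters thus sat at like host levels, 7.17 to 29.5 CPM for Mir99ahg and 8.76 to 39.4 CPM for 3110039I08Rik. Mir22hg, whose miR-22 is abundant in heart muscle, was at 11.6, 4.19, 15.3 and 5.11 CPM in Control_6w and at 13.4, 9.27, 38.2 and 21.3 CPM in IRR_6w (log2 fold change 0.98, below 2-fold, unadjusted p = 0.0419 in edgeR). Dleu2 was at 15.5, 10.8, 85.0 and 12.4 CPM in Control_6w and at 13.6, 9.78, 10.1 and 19.1 CPM in IRR_6w, with overlap.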

How the data were processed

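RNA-seq counts of 14 mouse hearts were analysed. The authors deposited raw counts per gene with a gene length in bases (a unit of its own kind, used here for FPKM and for the median lengths). Per their processing notes and methods, reads were checked with FastQC 0.11.8, trimmed with Trim Galore 0.6.1, aligned to mm10 with STAR 2.5.0a and counted with HTSeq. RNA selection, strandedness, counting mode and annotation release are not given in the sources used here.

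CPM were counts divided by the library total. Genes passing edgeR's low-count filter (16034) were scaled with TMM factors and fitted in 1 model of the 4 groups (edgeR 4.0.16 quasi-likelihood, R 4.3.3), with 5 contrasts, Benjamini-Hochberg adjustment over all genes, and a call at over 2-fold with adjusted p under 0.05. The script was tested on simulated data. Replicates are single mice. Alternatives were library totals, RLE factors, DESeq2 1.42.0, limma-voom (limma 3.58.1), fits of 2 groups, no filter, no ribosomal-RNA-like and mitochondrial rows, other thresholds, a replicate block and each library left out. After seeing the data, sets of libraries with other-tissue markers (germ cell markers apart) or the most zeros were also left out together. Copies were searched with blastn 2.17.0. Sequences are from RefSeq GRCm38.p6, where 99 members had a promoter.

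The members and all lists were chosen with earlier results of these data known. Members were named if called, among the 8 smallest p-values of a comparison (4 for the interaction), the 10 highest means, the role lists, the edges of the CPM limit or, up to 3 a library, over 3 times higher in 1 library. Further names of that set and of groups that did not overlap were chosen after their values were seen.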

Additional observations from a re-analysis of the deposited data

Results flagged for a closer look

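In the groups of 4 libraries, 33 named lncRNAs were checked for a library far from the other 3, by the ratio of its gap to the group's whole range. This gave 13 flags in 66 groups. Chance flags about 1 in 20 groups that were not picked, but these lncRNAs were named partly for values in the same libraries, so their number of flags cannot be set against that rate. Of these, 10 were in Control_6w replicate 3, the library with thymus markers. There Gm42047 stood at 193 CPM (others 1.84 to 3.98), AI504432 at 219 CPM (others 1.06 to 2.21), 1810026B05Rik at 119 CPM (others 17.3 to 28.0) and AU020206 at 112 CPM (others 22.7 to 24.6). Dleu2 stood at 85.0 CPM (others 10.8 to 15.5), Dgkeos at 78.3 CPM (others 0.431 to 0.781) and Gm21781 at 31.3 CPM (others 3.76 to 6.96). Gm46430 stood at 19.7 CPM (others 9.05 to 9.64) and E030013I19Rik at 17.1 CPM (others at most 0.123). Peg13 was the one below its group, at 28.7 CPM (others 68.5 to 74.7).

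IRR_6w replicate 1, the library with lung and atrial markers, was apart for 1810026B05Rik at 26 CPM (others 15.7 to 16.8) and E030013I19Rik at 9.06 CPM (others at most 0.959). In IRR_6w replicate 3, 9430091E24Rik stood at 1.65 CPM (others 7.60 to 8.63). The part of other tissue or missing genes in these values was not tested.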

How the results depend on the processing

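No alternative reversed the sign of the 36 named log2 fold changes, although several shrank without 1 library, as given above. Gm36161 at 6 weeks, the only one that passed, no longer passed under 15 alternatives, and the others, which had no call to lose, newly passed in 22 cases. The counts of called lncRNAs moved more, and the cause was not tested. The number of genes called in all also depended on the setting, not always in step with the lncRNAs. It was 41 at 6 weeks and became 344 and 358 with DESeq2 on all libraries and on 2 groups, 13 with edgeR on 2 groups, 18 with limma-voom, 138 without the filter, 180 without the other-tissue libraries, 83 with library totals and 0 without those with the most zeros. With 1 library left out it ran up to 98, when IRR_6w replicate 1 was dropped, and was 0 when the dropped library was replicate 1 or 2 of Control_6w or replicate 3 or 4 of the irradiated mice, so the background share at 6 weeks moves with single libraries. Without the filter it was 6 between controls and 26 between irradiated hearts, and without the other-tissue libraries 1, 105 and, for the change in effect, 29. At 1 day 0 became 1 with DESeq2 on 2 groups, and 1 at an unadjusted p. At 6 weeks 1 became 3 with DESeq2 on all libraries and 3 on 2 groups, 0 with edgeR on 2 groups, 0 with limma-voom, 2 without the filter, 2 without the libraries with other-tissue markers (named above), 0 without those with the most zeros (Control_1d replicate 1, IRR_6w replicates 3 and 4), and 14 at an unadjusted p. Between controls 0 became 1 with DESeq2 on all libraries, 1 on 2 groups, 1 without the filter and 1 without the other-tissue libraries (each time Gm26917), and 12 at an unadjusted p. Between irradiated hearts 0 became 2 with DESeq2 on all libraries, 4 on 2 groups, 1 without the filter, 2 without the other-tissue libraries and 7 at an unadjusted p. For the change in effect 0 became 1 with DESeq2, 1 without the other-tissue libraries and 4 at an unadjusted p. With each library left out, the counts ranged from 0 to 1 at 6 weeks and from 0 to 1 between irradiated hearts, and were 0 in the other comparisons.

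Deviations of same-numbered replicates from their group means had correlations over genes from -0.36 to 0.37, without a common sign. No reference from libraries of different numbers was computed, so these values cannot settle whether the numbers pair samples. A fit with the replicate number as a block called 0 lncRNAs in each comparison, against 1 at 6 weeks without it, with Gm36161 at a log2 fold change of 3.31 (edgeR, adjusted p = 0.115). In Control_1d replicate 1, 7 members had no count, and 37.6% of genes with a mean of 2 to 5 CPM had none there either. By sampling alone a count of 0 allows up to 3, a limit that does not cover genes missing in this way.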
